A study of Bombyx mori with 9 samples.

Results

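The genes AN0895 and HJHBP, both annotated as juvenile hormone binding proteins, were followed across silk glands of 3 strains of the domestic silkworm, Bombyx mori. They were taken by their gene names and are 2 of the 15745 features of the deposited expression table. AN0895 is the gene model BGIBMGA011460 and HJHBP is BGIBMGA011549. The strains, A306, XH and A798, are described as pure lines and were picked by the submitters for different silk gland weights, in a search for genes tied to gland development. Larvae were reared at 25 °C and 71% humidity, and glands were taken on day 5 of instar 5, the last larval instar, with 3 libraries per strain. Each sample comes with 2 gland weights, whose mean was 0.688 ± 0.0207 g for A306, 0.974 ± 0.00850 g for XH and 1.28 ± 0.0309 g for A798 (SD over 3 samples). The weights differ from sample to sample. Larval sex is not stated, and neither is whether samples of a strain are different animals or pools. How far the spread between samples, on which all p-values rest, covers differences between animals is therefore not known.

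Juvenile hormone is a small lipid-like hormone that the corpora allata release into the haemolymph, the insect blood, and that keeps a moulting larva larval. Because it is poorly soluble in water and is cut by esterases, it travels bound to a carrier, the haemolymph juvenile hormone binding protein, which the fat body makes and secretes. Related proteins with the same type of hormone-binding fold, the takeout family among them, occur in several insect tissues. The silk gland itself makes the fibroins and sericins of the cocoon, and its growth and silk gene activity are known to respond to juvenile hormone and to ecdysone.

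HJHBP is annotated as the haemolymph carrier. For AN0895 the table gives the same family name with no tissue, and its binding of the hormone is taken here from that annotation. In the RefSeq annotation of assembly ASM3026992v2 the genes of these names, hJHBP and an-0895, lie on the same chromosome with 7 annotated genes between them, 6 of them protein coding. Among them is ce-0330, which also carries the binding protein name among its synonyms. The gene an-0921, which is AN921 in the expression table, is separated from an-0895 by 1 gene. How the counting behind the table divided reads between related genes is not known.

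Expression was given as FPKM, fragments scaled to the length of the gene and to all mapped fragments, so levels of different genes can be set beside each other, but sequencing depth cannot be read from them. Library sums lay between 502510 and 587872 FPKM, and 5418 features were listed at 0 in all libraries. The tissue label was checked against 5 silk gland genes, among them the fibroin heavy chain, the fibroin light chain FIBL and P25, whose summed level averaged 28722 FPKM in A306, 38024 FPKM in XH and 24919 FPKM in A798. Most of this sum came from FIBL, which averaged 23739 FPKM in A306, 30547 FPKM in XH and 20106 FPKM in A798. P25 averaged 4617, 5912 and 3862 FPKM in the same order. The fibroin heavy chain averaged 268, 1479 and 854 FPKM, so unlike the sum it was lower in A306 than in A798. Sericin genes were not matched by name. The glands were sequenced in bulk, so for every gene here more cells of a type and more RNA per cell cannot be told apart.

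AN0895 was well above 0 in every library and differed between all 3 strains. Its level was 16.0, 12.9 and 16.8 FPKM in A306, 34.0, 36.3 and 35.8 FPKM in XH, and 5.33, 7.06 and 7.37 FPKM in A798. The XH libraries were the highest, the A306 libraries lay between, and no strain overlapped another. The means were 15.2 ± 2.08 FPKM in A306, 35.3 ± 1.23 FPKM in XH and 6.59 ± 1.10 FPKM in A798 (SD, n = 3 libraries each). Ranked from the most abundant feature down, AN0895 stood between places 1262 and 1511 in A306, between 712 and 726 in XH and between 1752 and 2142 in A798. The number of features above 0 was between 6733 and 7137 per library.

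HJHBP was far lower; it exceeded 1 FPKM in the XH libraries and in no other. Its level was listed at 0, 0.11 and 0.23 FPKM in A306, stood at 3.10, 1.57 and 3.56 FPKM in XH, and at 0.51, 0.69 and 0.19 FPKM in A798. All XH libraries lay above all others, with XH replicate 2 the lowest of its strain, while A306 and A798 overlapped. The means were 2.74 ± 1.04 FPKM in XH and 0.463 ± 0.253 FPKM in A798 (SD, n = 3 libraries each). A value of exactly 0 in this table can be a failed estimate, so no mean is given for A306. The AN0895 level was 117 and 73.0 times the HJHBP level of the same library in A306 replicates 2 and 3, 11.0, 23.1 and 10.1 times in XH, and 10.5, 10.2 and 38.8 times in A798. HJHBP stood between places 5457 and 6850 in A306, between 2792 and 3743 in XH and between 4365 and 5664 in A798.

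**Figure D1:**
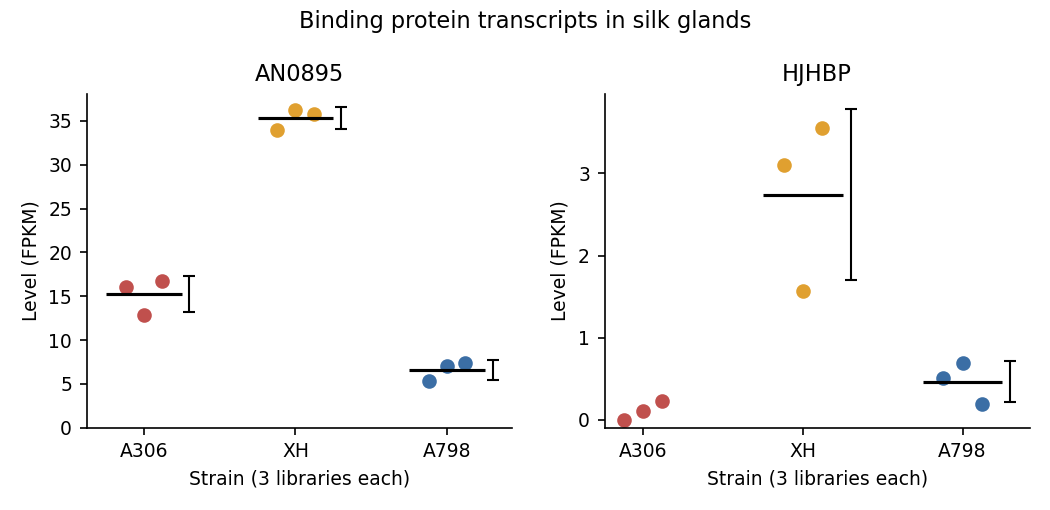
Level in FPKM (vertical axis, a separate scale for each gene) of AN0895 and HJHBP in the 3 libraries of A306, XH and A798. Points are libraries, horizontal lines means and bars 1 SD, both left out where a library was listed at 0. AN0895 separated all 3 strains, with XH at 34.0 to 36.3 FPKM, and HJHBP separated XH (1.57 to 3.56 FPKM) from the other strains.

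Strains were compared with limma on log2(FPKM + 1), fitted to all 9 libraries and to the 4636 features with at least 1 FPKM in at least 3 libraries, and a feature was called at a Benjamini-Hochberg adjusted p below 0.05. AN0895 passed that filter in every strain. HJHBP passed it through the XH libraries alone, so that it could enter the fit only by being high there, and its calls against XH are read with that in mind. On this scale the change of a gene as low as HJHBP is understated.

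In A306 against A798, the lightest against the heaviest glands, AN0895 rose and HJHBP did not pass the test. AN0895 was 2.31-fold higher in A306 by mean FPKM, and its fitted log2 change was 1.10 ± 0.13 SE (95% interval 0.80 to 1.40, limma adjusted p = 3e-04). Of all features tested 47.5% were called in this comparison, 37.9% as higher and 9.6% as lower, and the median log2 change of all features was 0.31. Of the tested features 45.4% had all A306 libraries above all A798 libraries, as AN0895 did, and 11.3% had all below. AN0895 lay 0.79 above the median, and 421 tested features had a higher change. HJHBP had a log2 change of -0.38 ± 0.24 SE (95% interval -0.95 to 0.18, limma adjusted p = 0.231). Its libraries in A306 and A798 overlapped, and the interval includes 0 as well as a fall of up to 0.95. Relative to the median of all features it was 0.69 lower, and with median centring its change was -0.71 (limma adjusted p = 0.0515). A pseudocount of 0.1 gave -1.44 (limma adjusted p = 0.0824), and over all settings tried the adjusted p ran from 0.0515 to 0.4.

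In XH against A798 both genes rose, and this was the comparison with the highest AN0895 change. AN0895 was 5.36-fold higher in XH, with a log2 change of 2.27 ± 0.13 SE (95% interval 1.97 to 2.57, limma adjusted p = 9.22e-06). Of all features tested 33.7% were called, 25.7% as higher and 8.02% as lower, around a median change of 0.19, and 34.9% had all XH libraries above all A798 libraries, as both genes did, against 11.4% with all below. A higher change than that of AN0895 was found for 66 of the 4636 tested features, and 215 had a higher change than HJHBP. HJHBP was 5.92-fold higher in XH by mean FPKM, nearly the same ratio, and its log2 change was 1.33 ± 0.24 SE (95% interval 0.76 to 1.89, limma adjusted p = 0.00415). Its lowest XH library was 2.28 times its highest A798 library. With every feature above 0 in any library in the fit, a rule that does not depend on one strain, the adjusted p of HJHBP was 0.0103 by limma. A pseudocount of 0.1 gave it a log2 change of 2.38 in this comparison.

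In A306 against XH both genes fell. AN0895 was 2.32-fold higher in XH than in A306, and its log2 change was -1.17 ± 0.13 SE (95% interval -1.48 to -0.87, limma adjusted p = 0.000256). HJHBP had a log2 change of -1.71 ± 0.24 SE (95% interval -2.28 to -1.15, limma adjusted p = 0.000919), and its adjusted p by limma was 0.00241 with every feature above 0 in the fit. Its lowest XH library, at 1.57 FPKM, was 6.83 times its highest A306 library, at 0.23 FPKM. Of all features tested 36.5% were called, 23.1% as higher and 13.4% as lower in A306, around a median change of 0.12; 32.1% had all A306 libraries above all XH libraries and 18% had all below, as both genes did. With a pseudocount of 0.1 the HJHBP change was -3.82. Fewer features lay below HJHBP (196) than below AN0895 (344). The 3 comparisons share libraries, so their results are not independent of each other.

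**Figure D2:**
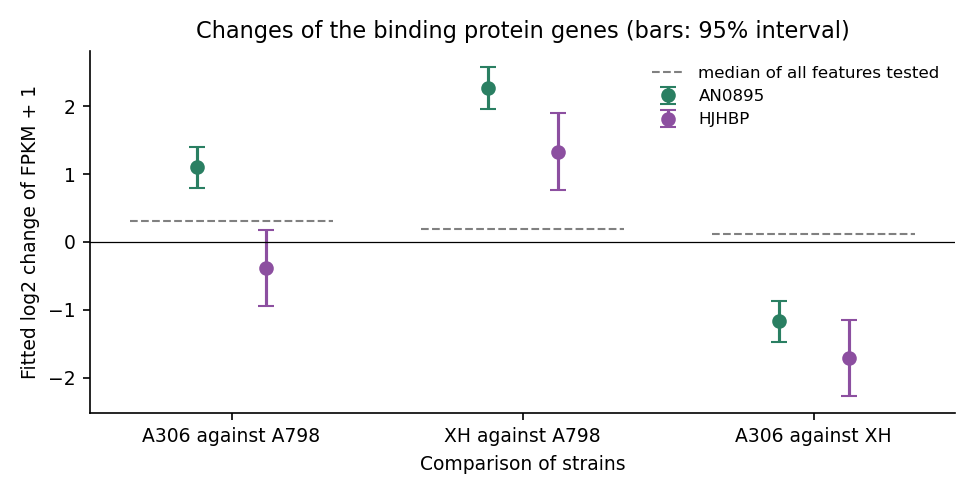
Fitted log2 change of FPKM + 1 (vertical axis) of AN0895 and HJHBP in A306 against A798, XH against A798 and A306 against XH, with 95% intervals from limma; dashed lines give the median change of all 4636 features tested. AN0895 and HJHBP both lay above 0 in XH against A798 and below 0 in A306 against XH, while in A306 against A798 the HJHBP interval (-0.95 to 0.18) includes 0.

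For AN0895 the order of the strains ran XH, A306, A798, with each neighbouring pair past the test. For HJHBP, XH lay above A306 and A798, which overlapped and did not differ beyond the spread. For neither gene did the order follow gland weight, since the highest level was in XH, whose glands are intermediate. Whether the genes changed by unequal amounts was tested on the difference of their log2(FPKM + 1) values within each library. This difference was 3.86 ± 0.22 in A306, 3.32 ± 0.47 in XH and 2.38 ± 0.39 in A798 (SD, n = 3 libraries each). It was 1.48 larger in A306 than in A798, with no overlap of libraries and p = 0.1 in an exact permutation test (two-sided), the smallest that 3 libraries against 3 allow. It was 0.94 larger in XH than in A798 (exact permutation p = 0.1), but only 0.62 with a pseudocount of 0.5 and 0.04 with one of 0.1 (exact permutation p = 0.3 and 0.9), so this value depended on the pseudocount. It was 0.54 larger in A306 than in XH (exact permutation p = 0.3), and 1.17 and 2.60 with those pseudocounts (exact permutation p = 0.1 for each).

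Libraries of one strain differed more for HJHBP than for AN0895. The residual SD on the log2 scale was 0.17 for AN0895 and 0.31 for HJHBP, against a median of 0.20 over all features tested, of which 57.4% had a larger SD than AN0895 and 32.7% a larger one than HJHBP. On the linear scale the SD of AN0895 was 13.6% of its mean in A306, 3.47% in XH and 16.7% in A798. That of HJHBP was 38.0% in XH and 54.7% in A798.

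Other genes of the juvenile hormone pathway were few in the table. A list of carriers and of genes for synthesis, breakdown, reception and release of the hormone, matched by names and descriptions, held 10 genes, and 7 of them were tested, the 2 binding protein genes included. Of these 7, 5 rose and 0 fell in A306 against A798, 6 rose and 0 fell in XH against A798, and 0 rose and 2 fell in A306 against XH. The 2 that fell were AN0895 and HJHBP themselves. Both are also among the 6 that rose in XH, and HJHBP entered the fit through XH alone. Of all features tested, 37.9% rose and 9.6% fell in A306 against A798, 25.7% rose and 8.02% fell in XH against A798, and 23.1% rose and 13.4% fell in A306 against XH. The genes that rose against A798 include FNTA and FNTB in both comparisons, which do not make juvenile hormone. The median log2 change of the 7 was 0.53, 0.63 and -0.05 in these comparisons, beside 0.31, 0.19 and 0.12 over all features tested. Under the 4 other scalings, 3 or 4 of the 7 were called higher in A306 against A798 and 4 to 6 in XH against A798. The hormone's receptor and its early response genes were not matched by name and were not analysed here.

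The third carrier of the list, AN921, was close to 0 in every strain. It was listed at 0.10, 0.10 and 0 FPKM in A306, at 0.09, 0 and 0 FPKM in XH, and at 0.09, 0.21 and 0.17 FPKM in A798, and it was not tested. Although its gene lies next but one to that of AN0895, its level was nowhere above 0.21 FPKM, where AN0895 was nowhere below 5.33 FPKM.

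The synthesis group consisted of enzymes of the mevalonate pathway, which supplies isoprenoid precursors in many tissues, and of protein farnesyltransferase subunits. HMG-S_BM, the synthase at the entry of that pathway, was at 9.38, 8.32 and 7.75 FPKM in A306, 6.41, 7.16 and 6.77 FPKM in XH, and 4.65, 3.73 and 3.74 FPKM in A798. It rose in A306 against A798 (log2 change 0.91, limma adjusted p = 0.000294) and in XH against A798 (0.63, limma adjusted p = 0.00307). MPK_BM, the phosphomevalonate kinase of the same pathway, averaged 24.6 ± 0.483 FPKM in A306, 23.7 ± 2.73 in XH and 15.0 ± 1.08 in A798 (SD, n = 3), and rose in both strains against A798 (log2 changes 0.68 and 0.63, limma adjusted p = 0.00056 and 0.00132). Both genes remained higher than in A798, and past the test, in A306 and in XH under the 4 other scalings tried.

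FNTA and FNTB encode subunits of farnesyltransferase, an enzyme that attaches a farnesyl group to proteins; they were matched by a word and do not make juvenile hormone. FNTA was at 55.4 ± 6.28 FPKM in A306, 57.5 ± 5.20 in XH and 41.3 ± 3.13 in A798 (SD, n = 3). FNTB was at 12.8, 11.8 and 11.3 FPKM in A306, 11.7, 12.1 and 10.1 in XH, and 7.91, 7.16 and 8.99 in A798. Both were called higher in A306 and in XH than in A798 with FPKM as deposited. Under median centring and trimmed mean scaling none of these 4 calls was kept, with limma adjusted p from 0.124 to 0.871. With equal sums outside the 20 most abundant features 3 of the 4 were kept, and under quantile normalization 1, FNTA in XH (limma adjusted p = 0.0394).

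The breakdown and release genes were measured at low levels or listed at 0. JHEH2, the juvenile hormone epoxide hydrolase, which opens the ring of the hormone, was listed at 0 in all 9 libraries, as were 5418 features of the table, and no level is read from that. JHEH-LP3, named for a likeness to that enzyme but described in the table as a glutathione peroxidase, was at 2.21 ± 0.127 FPKM in A306, 2.99 ± 0.412 in XH and 2.42 ± 0.235 in A798 (SD, n = 3), and passed the test in no comparison with FPKM as deposited. Under median centring it was called lower in A306 than in A798 (log2 change -0.42, limma adjusted p = 0.0203) and than in XH (-0.40, limma adjusted p = 0.0248), and likewise under trimmed mean scaling (limma adjusted p = 0.0365 and 0.0235). With equal sums outside the 20 most abundant features the limma adjusted p was 0.157 against A798 and 0.0327 against XH, and under quantile normalization 0.0609 and 0.0509. ALSTR, the receptor of allatostatin-A, a peptide that restrains hormone synthesis in cockroaches, did not exceed 0.4 FPKM in any library.

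**Figure D3:**
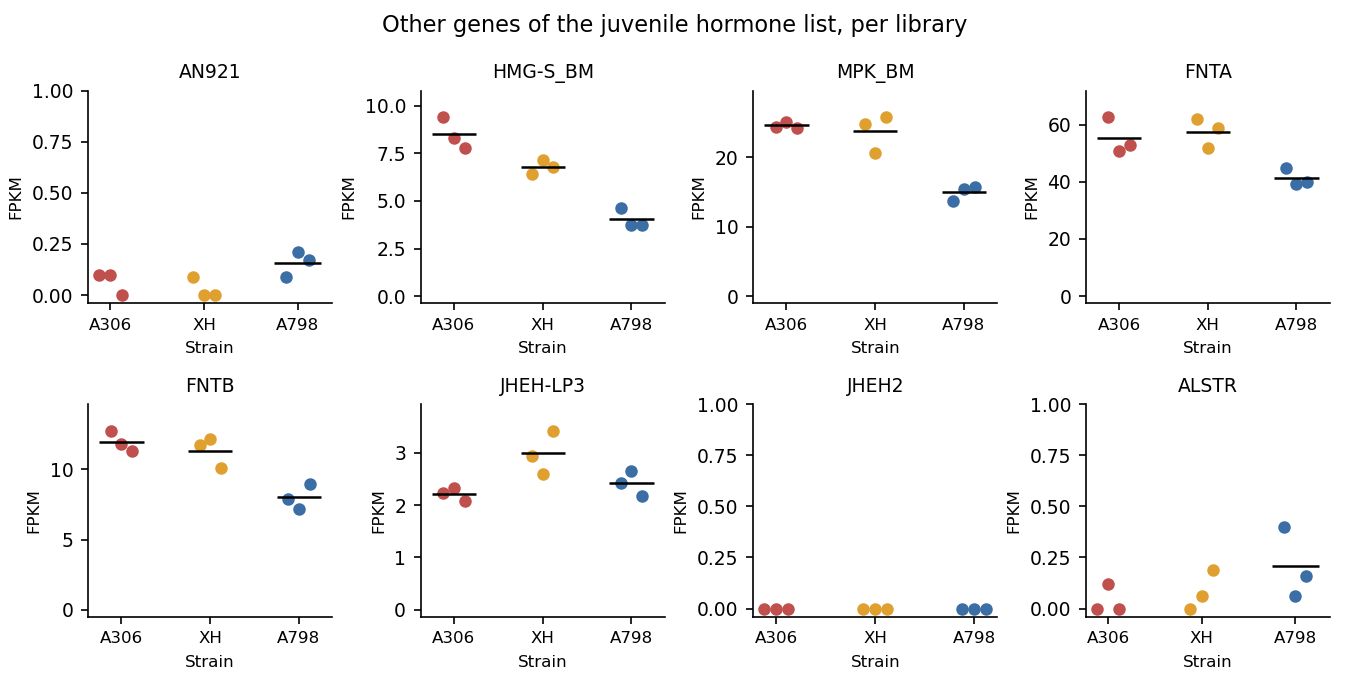
Level in FPKM (vertical axes, each gene on its own scale) of the 8 other genes of the juvenile hormone list in the 3 libraries of A306, XH and A798; points are libraries and lines means, left out where a library was listed at 0. HMG-S_BM, MPK_BM, FNTA and FNTB were lowest in A798, while AN921, JHEH2 and ALSTR stayed at or below 0.4 FPKM in all strains.

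Genes that the fat body expresses for the haemolymph, the usual source of HJHBP, differed between the strains as well. The list of storage proteins, low molecular weight lipoproteins and related genes had 19 members, and their summed level was 77.3, 77.0 and 70.9 FPKM in A306, 1833, 1800 and 1883 FPKM in XH, and 625, 641 and 622 FPKM in A798. Of its 13 tested members 11 fell and 0 rose in A306 against A798, 13 rose in XH against A798 and 13 fell in A306 against XH. Over all features tested the shares were 9.6% lower, 25.7% higher and 13.4% lower in these comparisons. The members BGIBMGA004404, LSP-T and BGIBMGA008164 reached 1 FPKM in the XH libraries alone, and SLP there and in A798 replicate 1 (1.18 FPKM). Like HJHBP, they could enter the fit only by being high there, so their calls against XH add little to these counts. Its 4 most abundant members were the lipoproteins LP-C19, BMO.682 and LP and the storage protein SP3. SP3 was at 4.26 ± 0.368 FPKM in A306, 186 ± 2.12 in XH and 38.5 ± 2.44 in A798, and LP-C19 at 15.4 ± 1.13 FPKM in A306, 439 ± 12.5 in XH and 124 ± 4.32 in A798 (SD, n = 3). BMO.682 was at 17.5 ± 0.665 FPKM in A306, 347 ± 11.9 in XH and 174 ± 4.16 in A798, and LP at 11.1 ± 1.78 FPKM in A306, 394 ± 19.1 in XH and 111 ± 4.59 in A798. All 4 were highest in XH and lowest in A306. Vitellogenin (VG), the yolk protein gene of the female fat body, did not exceed 0.01 FPKM. SP1 and SP2 are described as sex-specific storage proteins. SP1 was at 0.07, 0.07 and 0 FPKM in A306, 81.75, 83.54 and 86.02 FPKM in XH, and 57.95, 65.22 and 57.56 FPKM in A798. SP2 averaged 4.05 FPKM in A306, 154 FPKM in XH and 30.9 FPKM in A798. Larval sex is not stated, and whether it differed between the strains was not tested.

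HJHBP and AN0895, like the summed list, were highest in XH. The list was lower in A306 than in A798, whereas AN0895 was higher there and the HJHBP libraries of these strains overlapped. By mean sums the list was 2.92-fold higher in XH than in A798, and 8.39-fold higher in A798 than in A306.

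Set against the list sum of its own library, HJHBP stood at 0, 1.43 and 3.24 FPKM per 1000 FPKM of the list in A306, at 1.69, 0.872 and 1.89 in XH, and at 0.815, 1.08 and 0.306 in A798. The ranges of A306 and XH and of XH and A798 overlapped. A306 and A798 overlapped through the A306 library listed at 0 alone, a value that can be a failed estimate, and the other 2 A306 libraries lay above all of A798. AN0895 stood at 208, 167 and 237 FPKM per 1000 FPKM of the list in A306, between 18.5 and 20.2 in XH, and at 8.52, 11.0 and 11.9 in A798, with no overlap between strains. The part of fat body transcripts in the HJHBP values was not tested.

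**Figure D4:**
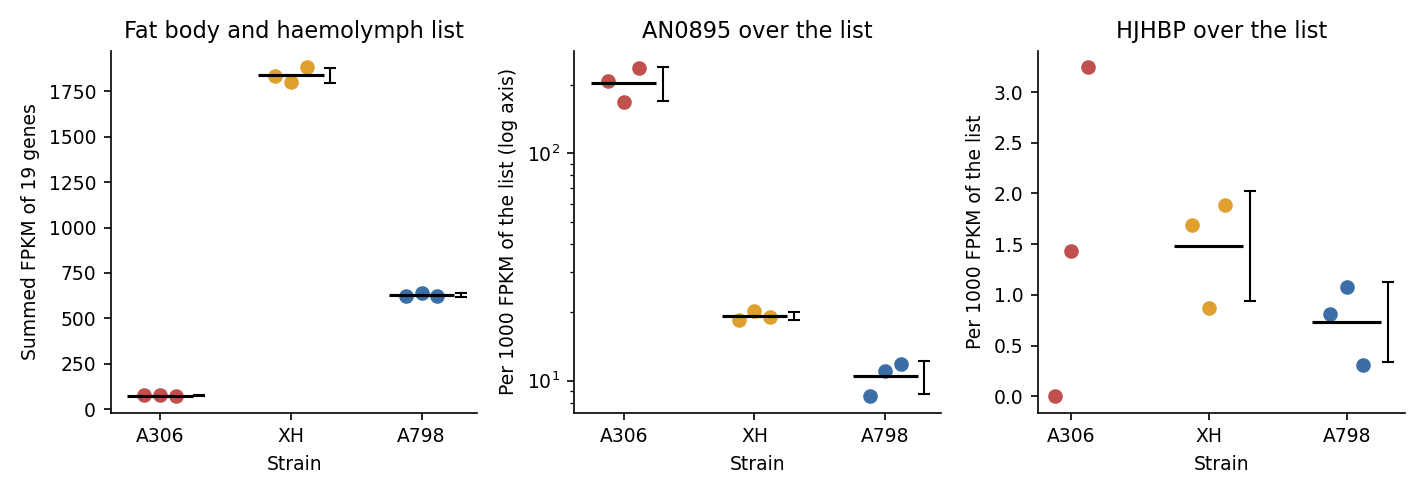
Left, summed FPKM of the 19 fat body and haemolymph genes; middle (log axis) and right, AN0895 and HJHBP per 1000 FPKM of that list, for the 3 libraries of A306, XH and A798. Points are libraries, lines means and bars 1 SD, left out where a library was listed at 0. Per list FPKM, AN0895 was highest in A306 (167 to 237), while HJHBP overlapped between XH and each other strain, and between A306 and A798 through the A306 library listed at 0 alone.

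Some markers of haemocytes and muscle also differed between the strains. The haemocyte list of 7 genes had a summed level of 2.34, 3.22 and 3.23 FPKM in A306, 7.14, 6.90 and 7.34 FPKM in XH, and 2.60, 2.62 and 2.15 FPKM in A798. Both of its tested members, PPO1 and PRO-PO2, rose in XH against A798, where 25.7% of all features did. PRO-PO2 reached 1 FPKM in the XH libraries alone, so it could be tested only by being high there. In A306 against A798, PPO1 rose and PRO-PO2 fell. Most of the haemocyte sum came from these genes. Hemocytin (BGIBMGA006692) was not tested and did not follow the sum, since its libraries overlapped between all strains. It was at 0.36, 0.59 and 0.27 FPKM in A306, 0, 0.01 and 0.34 FPKM in XH, and 0.34, 0.64 and 0 FPKM in A798. In the list, 4 genes are integrin beta models. Of these, 3 were listed at 0 in all libraries of A306 and of A798, and 1 in all libraries of XH. Its member with the highest mean over all libraries, the phenoloxidase PPO1, was at 2.44 ± 0.501 FPKM in A306, 3.01 ± 0.273 in XH and 1.38 ± 0.223 in A798 (SD, n = 3). Its log2 change in A306 against A798 was 0.53 (limma adjusted p = 0.0176, and from 0.0667 to 0.339 under the 4 other scalings), and that of PRO-PO2, at 0.03 to 0.16 FPKM in A306 and 0.63 to 0.81 FPKM in A798, was -0.66 (limma adjusted p = 0.00278). The muscle list of 5 genes had 72.1, 81.7 and 78.3 FPKM in A306, 68.7, 71.5 and 72.7 FPKM in XH, and 44.0, 44.0 and 38.5 FPKM in A798, most of it from actin A1, which averaged 72.9 ± 3.74 FPKM in A306 and 38.2 ± 2.95 FPKM in A798 (SD, n = 3). Of its 3 tested members 1 rose in A306 against A798, where 37.9% of all features did, and 2 rose in XH against A798, where 25.7% did. In A306 against XH, MLC-2 fell, and A1 rose with FPKM as deposited but under none of the 4 other scalings (limma adjusted p from 0.116 to 0.724). Outside XH, MLC-2 reached 1 FPKM only in A306 replicate 3 (1.21 FPKM). It could thus be tested only by being high in XH, and its calls against XH add little. The myosin gene BGIBMGA012961 was at 1.33, 3.78 and 3.49 FPKM in A306, 5.31, 2.89 and 3.61 in XH, and 4.13, 3.05 and 2.57 in A798, which overlapped. Their part in the levels of AN0895 and HJHBP was not tested.

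Genes with the most similar pattern were sought among the 578 other tested features with a name or description. Likeness was the root mean square difference over the 9 libraries of log2(FPKM + 1) values, each gene centred on its own mean, so that smaller is more alike; it is a description with no test. Nearest to AN0895, at 0.22, was BGIBMGA011774, a purine nucleoside phosphorylase, which splits purine nucleosides in the recovery of bases. It was at 6.34, 4.37 and 5.58 FPKM in A306, 11.1, 12.2 and 12.9 FPKM in XH, and 1.05, 3.3 and 2.94 FPKM in A798. Next came BGIBMGA005966, glucose-6-phosphate dehydrogenase, the first enzyme of the pentose phosphate pathway, at 0.39, and the myosin light chain MLC-2, also at 0.39. The dehydrogenase gene was at 20.4 ± 1.02 FPKM in A306, 32.7 ± 1.66 in XH and 11.7 ± 0.663 in A798 (SD, n = 3). The DNA supercoiling factor gene BGIBMGA001107 followed at 0.43 and the cuticle protein gene CPR4 at 0.44. MLC-2 differs from AN0895 in that its A306 libraries, at 0.28, 0.54 and 1.21 FPKM, overlapped those of A798, at 0.26, 0 and 0.47 FPKM. It also passed the filter only by being high in XH, so its likeness to AN0895 follows in part from the filter.

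Nearest to HJHBP, at 0.25, was the low molecular weight lipoprotein LP-C12, a member of the fat body list. It was at 20.7, 20.3 and 19.2 FPKM in A306, 64.7, 68.6 and 74.1 FPKM in XH, and 32.5, 28.7 and 27.1 FPKM in A798, with XH highest, as for HJHBP, at a much higher level. The likeness holds on the log2(FPKM + 1) scale, where changes of HJHBP are understated. By mean FPKM, XH was 2.35-fold above A798 for LP-C12 and 5.92-fold for HJHBP. The lowest XH library was 3.12 times the highest A306 library for LP-C12 and 6.83 times for HJHBP. A306 and A798 did not overlap for LP-C12, whereas they did for HJHBP. Then came MF-CPA, a carboxypeptidase of the moulting fluid, at 0.29. MF-CPA was at 0.08, 0 and 0 FPKM in A306, 2.95, 1.77 and 1.98 in XH, and 0.67, 0.65 and 0.65 in A798. The phenoloxidase PRO-PO2, a haemocyte enzyme of melanin formation, was at 0.30 and the cuticle protein gene BMORCPR34 at 0.31. PRO-PO2 was at 0.03, 0.16 and 0.03 FPKM in A306, 3.51, 3.41 and 3.97 FPKM in XH, and 0.63, 0.66 and 0.81 FPKM in A798. MF-CPA and PRO-PO2 passed the filter through the XH libraries alone, as HJHBP did. Low features that enter in this way are high in XH by that rule, so their likeness to HJHBP follows in part from the filter. AN0895 and HJHBP were 0.69 apart, which put HJHBP at place 41 in likeness to AN0895 and AN0895 at place 78 in likeness to HJHBP.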

How the data were processed

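The authors deposited FPKM to 2 decimals for 15745 features of 9 libraries. Per the submitters' processing notes, fastp 0.19.5, StringTie 1.3.3b and DESeq2 1.24.0 were used; the aligner, build and annotation were not given in the sources used here. Because FPKM are scaled to the mapped total, very abundant features lower the values of all others; depth is unknown. Another 3 columns, the strain means, were not used.

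Samples were grouped by the strain label. Features with at least 1 FPKM in at least 3 libraries (4636) were fitted as log2(FPKM + 1) with limma 3.58.1 (R 4.3.3), strain means over all 9 libraries, with an intensity trend and two-sided tests adjusted over all features tested. The procedure was tested on simulated data. Each lighter-gland strain was compared with A798, as in the submitters' design, and A306 with XH. The members and lists were chosen with earlier results of these data known. Named genes were the 2 binding protein genes, the juvenile hormone list, the most abundant markers and the 5 nearest patterns per gene, of which 1 is not reported here. Gene names were matched by symbol to RefSeq (ASM3026992v2) for 3 genes, without coordinates.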

Additional observations from a re-analysis of the deposited data

How the results depend on the processing

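AN0895 kept its direction and its call in all 3 comparisons under the 13 other settings and without any 1 of the 9 libraries. HJHBP did so under the 12 settings that could be fitted. With a minimum of 5 FPKM in 3 libraries HJHBP was not in the fit. Except in the fit with no filter on low values, HJHBP met the minimum only through its XH values. Its kept calls against XH are therefore no separate support. Over those settings the log2 change of AN0895 ran from 0.74 to 1.20 in A306 against A798, from 2.03 to 2.42 in XH against A798 and from -1.31 to -1.17 in A306 against XH. For HJHBP the ranges were -1.44 to -0.34, 1.09 to 2.38 and -3.82 to -1.58, the widest values coming from a pseudocount of 0.1, and its adjusted p in A306 against A798 ran from 0.0515 to 0.4. Leaving out single libraries gave 0.97 to 1.21, 2.14 to 2.35 and -1.24 to -1.06 for AN0895. For HJHBP it gave -0.53 to -0.27, 1.16 to 1.58 and -1.96 to -1.55. These fits kept the features that passed the filter with all 9 libraries. HJHBP reached 1 FPKM in the 3 XH libraries alone, so without any 1 of them it would have failed the filter. Its values without an XH library therefore say nothing on whether it would still be tested. With all XH libraries kept, its changes against XH ran from 1.19 to 1.44 in XH against A798 and from -1.79 to -1.64 in A306 against XH. The main fit called 5 juvenile hormone list genes in A306 against A798, 6 in XH against A798 and 2 in A306 against XH. Over the other settings these numbers ran from 3 to 5, from 4 to 6 and from 1 to 3. The lowest number in A306 against A798 came from quantile normalization. In A306 against XH it came from a minimum of 5 FPKM, where HJHBP was not tested. The replicate block changed no call of the 2 genes (limma adjusted p of HJHBP 0.298 in A306 against A798, 0.016 in XH against A798 and 0.00515 in A306 against XH). Deviations of same-numbered libraries correlated across features at r = 0.000389 to 0.0626, so these libraries had no strong deviation in common. Whether same-numbered samples were handled together is not known. Over the settings the median change of all features ran from -0.02 to 0.38, from -0.05 to 0.23 and from -0.0028 to 0.16 in the 3 comparisons. With no counts, the depth behind the low HJHBP values is unknown.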
